A study of Mus musculus with 9 samples.

Results

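RNA of mouse morulae sired by males given ethanol, at either of 2 doses, was compared with that of morulae sired by control males. The design asks whether paternal drinking before conception affects the messages of embryos, here obtained by fertilization in vitro. The 6 libraries labelled 6% EtOH or 10% EtOH were taken as 1 group against the 3 libraries labelled Control. The genes described are those whose 6 ethanol libraries all lay on the same side of all 3 control libraries, called here genes without overlap. They numbered 223 of the 12488 genes with enough counts to test (1.79%), and 96 of them were higher (0.769%) and 127 lower (1.02%) with ethanol. If all 9 libraries were exchangeable, without ties, the 84 splits into 6 and 3 would give a share of 0.0238 over both directions. The 1.79% found is not above that share. All embryos were labelled C57BL/6J, carried no labelled mutation or transgene, and came from the Nakagata fertilization procedure with CARD media, so that the groups differed by label only in the treatment of the sire. Each dose had 3 libraries. The labels do not say how many embryos or sires stand behind a library, or how long the males drank, so p-values reflect only how far these libraries scatter, in part perhaps for technical reasons.

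At the morula stage the blastomeres flatten against each other, form apical and basolateral surfaces and begin to divide into outer cells, which become trophectoderm, and inner cells. By then the embryo transcribes its own genome and most messages stored in the oocyte have been degraded. The mouse embryo lives on pyruvate and lactate through the cleavage divisions and takes up more glucose from compaction on. Secreted and membrane proteins are folded in the endoplasmic reticulum by chaperones whose genes are switched on together when unfolded proteins accumulate, the unfolded protein response.

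Library totals ran from 6263465 to 27619281 counts, and an exact two-sided permutation test of the ethanol against the control totals gave p = 0.774, where 84 splits allow a smallest p of 0.0238. Totals went with the form of the column header in the deposited files. The 4 files whose header names RNA STAR held 19574710 to 27619281 counts, and the 5 with a short header held 6263465 to 11026334. Each dose and the control group had libraries of both forms. The form that names RNA STAR, called long below, held 1 control library, control 2, and 3 ethanol libraries, 6% EtOH 1, 10% EtOH 1 and 10% EtOH 2. The short form held 2 control and 3 ethanol libraries. Of the tested genes, 13.5% were at 0 in 6% EtOH 2 and 8.42% in 6% EtOH 3, against 1.497% to 7.303% elsewhere. The summed level of 16 morula and lineage markers was 2497 to 3620 CPM (counts scaled to a common library total) in controls and 1933 to 3687 CPM with ethanol. Of the markers of cells that could be carried along, the cumulus genes Cd44, Has2, Ptx3, Fshr and Lhcgr, the sperm genes Prm2, Tnp1, Odf1 and Smcp and the blood genes Ptprc and Hbb-bs were at 0 in all 9 libraries. The summed blood level was 0.587 to 15.7 CPM in controls and 2.39 to 19.0041 CPM with ethanol, with members above 0 that included Coro1a (in 8 libraries), Cd68 and Cd74 (in 7 each) and Laptm5 (in 4). The summed cumulus level was 288 to 302 CPM in controls and 217 to 459 CPM with ethanol, and it was carried by Nr5a2, a gene embryos also express. Other cumulus members above 0 included Star (in 8 libraries, 5.89 CPM in control 1), Areg (in 5) and Foxl2 (in 4). The summed sperm level was 24.7 to 44.6 CPM in controls and 7.02 to 25.8 CPM with ethanol, carried by Odf2. Other sperm members above 0 included Ldhc (in 6 libraries) and Tssk6 (in 3, with 9.30 CPM in control 2). The part of the sperm level in the results below was not tested.

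No gene passed the test. With edgeR's quasi-likelihood test, with p-values of all 12488 genes adjusted together after Benjamini and Hochberg, 0 genes (0%) reached an adjusted p of 0.05, and the smallest was 0.9997, which is also the adjusted p of every gene named below unless another tool is given. At an unadjusted p under 0.05 edgeR gave 470 genes (3.76%), 169 higher (1.35%) and 301 lower (2.41%). limma voom with quality weights also gave 0. DESeq2 gave 5 of 12019 (0.0416%), namely Lcorl, 1700007K13Rik, Gpa33 and Mthfsd lower and Uba1y higher. The groups overlapped in Mthfsd, which is therefore not among the 223 genes. Since no gene passed the main test, values below are a description of these 9 libraries. The direction of each gene without overlap is fixed by the way the genes were chosen, and shares within a gene list are read below against the 0.769% higher and 1.02% lower of all tested genes. Each of the 223 genes kept its sign in every other setting in which it was tested, which the choice also fixes in large part.

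**Figure D1:**
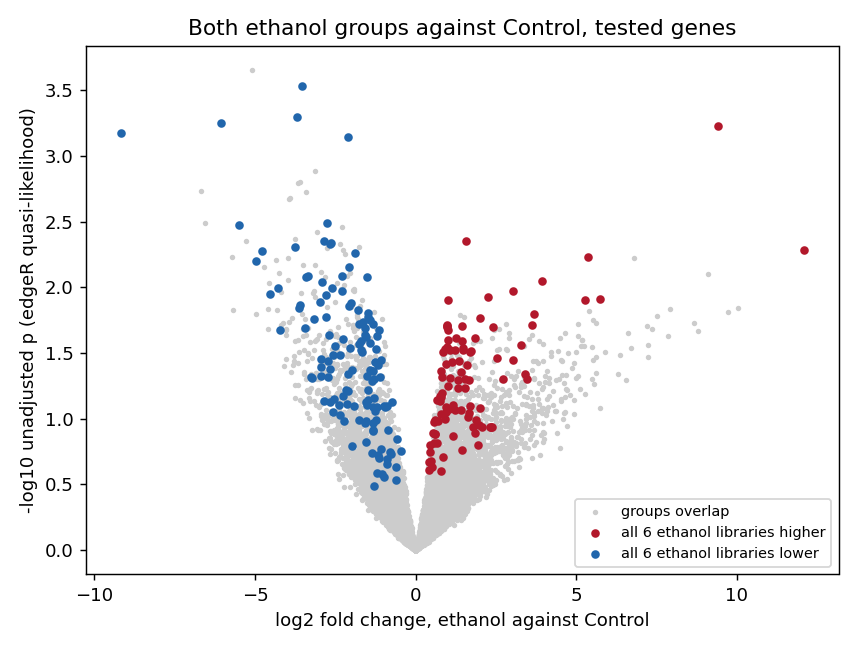
Each point is 1 of 12488 tested genes, with the log2 fold change of the 6 ethanol libraries against the 3 control libraries on the horizontal axis and the negative log10 of the unadjusted edgeR p on the vertical axis. The 96 genes without overlap that were higher are red and the 127 that were lower are blue. Both sets reach down to weak p-values, and grey genes, whose groups overlap, reach as high as they do.

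The lower set held the larger differences. Its median log2 fold change was -1.76 (from -9.19 to -0.46), against 1.32 (from 0.41 to 12.10) in the higher set and 0.07 over all tested genes. Lower genes were also less abundant, with a median level of 9.60 CPM against 44.3 CPM in the higher set and 14.7 CPM over all genes. Of the 7682 genes at a mean of 10 CPM or more in either group, 69 were higher (0.898%) and 83 lower (1.08%) without overlap. From here on CPM is on library sizes scaled with TMM factors. The gap, the log2 ratio of the nearest pair of libraries across the groups with 0.5 CPM added, was above 1 in 15 lower genes and in 2 higher ones, Uba1y and Atp8b4. The balance of directions depended on the scaling. With library totals in place of TMM factors 44 genes were higher and 197 lower, which is 18.3% higher against 43.0%, the median over all genes moved to -0.13, and 169 of the 223 genes remained without overlap in the same direction. In bulk libraries like these, fewer cells of a type and less RNA per cell cannot be told apart.

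Among the chaperones of the endoplasmic reticulum, the lower gene without overlap was Hsp90b1, which folds integrins and other membrane proteins. It was at 364, 87.7 and 122 CPM in controls 1 to 3 and at 33.3 to 70.2 (median 39.7) CPM with ethanol. The 6 ethanol libraries were close together and control 1 was far above the other two. The log2 fold change was -2.11 ± 0.48 SE, and -1.24 without control 1. Of the 35 tested genes in a list of the unfolded protein and integrated stress responses, 26 were below 0 and 9 above, with a median of -0.42 against 0.07 over all genes. Hsp90b1 was the only member without overlap, 2.86% of the list against 1.02% of all genes. The other members with an unadjusted p under 0.05 by edgeR were Herpud1 (-3.91 ± 1.02 SE) and Sel1l (-2.19 ± 0.66 SE), both of the machinery that disposes of misfolded proteins, the disulfide isomerase Pdia6 (-1.51 ± 0.59 SE), the main chaperone Hspa5, also called BiP (-1.01 ± 0.44 SE), the kinase Eif2ak1 (-1.67 ± 0.76 SE) and, in the other direction, the co-chaperone Dnajb9 (1.38 ± 0.59 SE). Hspa5 was at 847, 375 and 307 CPM in controls and 123 to 397 (median 268) CPM with ethanol, so its groups overlapped. The list's median went from -0.89 without control 3 to -0.04 without control 1. Within the header forms it was 0.05 in the long, where control 2 was the only control, and -1.42 in the short.

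The stress-activated factor ATF6 is known to bind an element in promoters of chaperone genes, and 3 promoters are shown because the members of the list that hold its letters all lay below 0. The element was searched as CCAAT, 9 bases of any kind and CCACG, on both strands, from 250 bases before to 50 after the start in the RefSeq promoter table of GRCm38.p6, an earlier build than that of the counts. It was found in 20 of 8945 tested genes with a promoter (0.224%), in 2 of 105 lower genes (1.9%, Hsp90b1 and Xlr3a) and in 0 of 68 higher genes. Of the 20 genes, 14 had a log2 fold change below 0 and 6 above, with a median of -0.34, and 8 of the 20 were in the unfolded protein list, all 8 below 0. Capitals mark the element, which reads reversed where it lies on the opposite strand, and the spans are chr10:86705395-86705694 (minus strand) for Hsp90b1, chr2:34771840-34772139 (plus) for Hspa5 and chr12:17266339-17266638 (plus) for Pdia6.
Hsp90b1: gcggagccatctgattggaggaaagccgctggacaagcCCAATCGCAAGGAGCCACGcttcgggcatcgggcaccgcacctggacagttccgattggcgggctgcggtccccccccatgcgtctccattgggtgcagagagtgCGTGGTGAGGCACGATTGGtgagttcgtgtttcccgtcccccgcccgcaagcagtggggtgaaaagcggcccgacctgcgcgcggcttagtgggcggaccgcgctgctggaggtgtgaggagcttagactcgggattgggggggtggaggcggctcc
Hspa5: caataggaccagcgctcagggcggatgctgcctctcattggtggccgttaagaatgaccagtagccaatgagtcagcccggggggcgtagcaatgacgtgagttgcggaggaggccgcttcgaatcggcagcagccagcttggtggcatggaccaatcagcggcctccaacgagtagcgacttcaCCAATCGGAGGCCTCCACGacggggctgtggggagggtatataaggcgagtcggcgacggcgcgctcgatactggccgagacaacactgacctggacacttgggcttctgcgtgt
Pdia6: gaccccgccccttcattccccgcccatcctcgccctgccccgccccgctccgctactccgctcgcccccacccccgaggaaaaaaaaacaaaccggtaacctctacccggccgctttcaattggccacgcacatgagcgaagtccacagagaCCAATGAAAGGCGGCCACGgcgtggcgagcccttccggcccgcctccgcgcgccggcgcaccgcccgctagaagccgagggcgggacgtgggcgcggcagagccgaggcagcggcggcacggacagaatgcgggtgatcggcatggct
Hsp90b1 holds the element once on each strand. The inner part of the 9 bases differs between the 3 genes, and only the outer letters were searched.

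Glycolysis supplied 3 lower genes of its 19 tested, 15.8% against the 1.02% of all genes. They were Gapdh, Pgk1 and Pfkl, enzymes of the glucose breakdown path of which Pfkl sets the pace as a subunit of phosphofructokinase. Gapdh was at 163, 186 and 127 CPM in controls and 5.18 to 96.7 (median 43.4) CPM with ethanol, with 6% EtOH 3 far below the rest. Pgk1 was at 25.8, 28.5 and 69.9 CPM in controls and 7.49 to 25.4 (median 17.2) CPM with ethanol, and its highest ethanol library nearly touched its lowest control. Pfkl was at 10.4, 17.4 and 37.1 CPM in controls and 0 to 8.32 (median 3.49) CPM with ethanol. For Gapdh, 6% EtOH 2 and 10% EtOH 3 came nearest to the controls. Log2 fold changes were -1.71 ± 0.68 SE for Gapdh, -1.29 ± 0.60 SE for Pgk1 (-0.703 without control 3) and -2.58 ± 1.08 SE for Pfkl. In all, 16 of the 19 genes were below 0 and 3 above, with a median of -0.69. Further members, Eno1 (-2.94 ± 0.93 SE), Hk2 (-1.88 ± 0.88 SE), Gpi1 (-1.097 ± 0.69 SE) and the glucose carrier Slc2a1 (-1.39 ± 0.91 SE), were lower with overlap. Eno1 was at 14.7, 282 and 7.48 CPM in controls and 2.48 to 23.7 (median 13.4) CPM with ethanol, so that 1 control carried the difference. Without control 2 the list's median was -0.22, and without control 1 it was -0.94. By header form it was -0.90 in the long, where control 2 was the only control, and -0.73 in the short. Counts of Gapdh and Eno1 are uncertain, since many pseudogenes resemble them.

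The start of Pgk1 (chrX:106186850-106187149, plus strand, GRCm38.p6) holds the core of a hypoxia response element, ACGTGC, here on the opposite strand and in capitals. It is shown because Pgk1 and Gapdh both hold it, in Gapdh after the start. Pfkl does not hold it, and the higher genes Ctsl, Pdss1 and Yap1 do.
Pgk1: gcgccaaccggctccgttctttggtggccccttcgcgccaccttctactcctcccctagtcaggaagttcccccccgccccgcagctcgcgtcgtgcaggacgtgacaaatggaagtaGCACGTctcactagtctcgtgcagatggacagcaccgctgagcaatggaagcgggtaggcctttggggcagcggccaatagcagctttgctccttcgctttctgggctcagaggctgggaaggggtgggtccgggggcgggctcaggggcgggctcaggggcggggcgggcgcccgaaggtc
The same 6 letters were found in 10.1% of tested genes with a promoter, in 9.52% of the lower and in 10.3% of the higher ones, a like share in all 3.

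Lower genes of mitochondrial metabolism and redox balance were few in their lists. Suclg1, a subunit of the succinate-forming enzyme of the citric acid cycle, was at 399, 459 and 345 CPM in controls and 102 to 299 (median 262) CPM with ethanol (-0.73 ± 0.38 SE). Cox8a, a subunit of cytochrome c oxidase, was at 17.96, 12.6 and 20.4 CPM in controls and 2.42 to 12.2 (median 10.5) CPM with ethanol (-0.88 ± 0.68 SE). In both genes 6% EtOH 3 lay well below the other 5 ethanol libraries. Those were at 246 to 299 CPM for Suclg1 and 8.02 to 12.2 CPM for Cox8a. Each gene was the only member without overlap among 28 citric acid cycle genes (3.57%, median -0.24) and 78 nuclear genes of oxidative phosphorylation (1.28%, median -0.10), respectively. Glrx2, the mitochondrial glutaredoxin, was at 18.7, 17.6 and 45.3 CPM in controls and 1.48 to 14.1 (median 4.19) CPM with ethanol (-2.297 ± 0.77 SE). Glrx, its cytosolic relative, was at 1.88, 2.64 and 2.05 CPM in controls and at 0 in 4 of the 6 ethanol libraries, with a highest value of 0.508 CPM. It was the only member without overlap among 37 antioxidant genes, of which 27 were below 0 and 10 above, with a median of -0.37 that ran from -0.52 to -0.27 as each library was left out. Cyb5r3, which reduces cytochrome b5, was at 12.8, 13.9 and 10.995 CPM in controls and 1.54 to 4.36 (median 2.94) CPM with ethanol, a gap of 1.24 and a log2 fold change of -2.06 ± 0.73 SE. Its 3 controls were close together. The mitochondrial ribosome split, with Mrps21 and Mrps12 lower and Mrpl1 and Mrpl47 higher, 4 of 77 tested genes around a median of -0.01. Mrps21 was at 37.5, 34.9 and 53.1 CPM in controls and 5.395 to 31.8 (median 14.6) CPM with ethanol, whereas Mrpl47 was at 50.4, 52.4 and 46.6 CPM in controls and 56.5 to 97.4 (median 63.5) CPM with ethanol. The messages encoded in the mitochondrion itself had no member without overlap, although all 13 had a log2 fold change above 0 and their median was 0.92. That median was 0.29 without 6% EtOH 3, and it was 1.55 for 6% EtOH and -0.50 for 10% EtOH set singly against the same 3 controls. Of the library total, these messages summed to 5718 to 11289 CPM in the long-header libraries and 10273 to 44202 CPM in the short-header ones. The doses hold the 2 header forms in unlike shares, so dose and header form cannot be told apart here.

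Wide and narrow gaps were found among single genes of the cytoskeleton, the cell cortex and the matrix. Plec, the cytolinker that ties intermediate filaments to junctions, was at 40.3, 25.7 and 24.6 CPM in controls and 1.101 to 8.99 (median 5.299) CPM with ethanol, a gap of 1.40. The highest ethanol library, 10% EtOH 1, lay well under the lowest control. The log2 fold change was -2.63 ± 0.77 SE. Slc9a3r1, the ezrin-binding scaffold of apical membranes also called NHERF1, was at 35.5, 15.4 and 27.4 CPM in controls and 1.15 to 11.2 (median 5.103) CPM with ethanol (-2.302 ± 0.74 SE), a gap of 0.44. Arhgap28, a GTPase-activating protein, was at 15.1, 15.9 and 8.503 CPM in controls and 0 to 2.77 (median 1.01) CPM with ethanol, with the widest gap of the genes at 10 CPM or more without a predicted symbol, 1.46. Mfap5, a protein of extracellular microfibrils, was at 29.4, 8.89 and 62.3 CPM in controls and 0.573 to 8.55 (median 5.33) CPM with ethanol (-2.84 ± 0.83 SE), its control 2 close to the highest ethanol library, a gap of 0.05. Lists of 44 actin cytoskeleton genes and of 23 polarity and junction genes held no member without overlap, with medians of -0.14 and -0.09, and none of these 4 genes was in them.

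Man2b1, a lysosomal mannosidase, was at 144, 138 and 71.2 CPM in controls and 4.39 to 60.3 (median 25.8) CPM with ethanol (-2.07 ± 0.65 SE). Gltp, which carries glycolipids between membranes, was at 139, 46.3 and 87.1 CPM in controls and 16.8 to 44.5 (median 32.9) CPM with ethanol (-1.51 ± 0.49 SE). Ctsl, the lysosomal protease cathepsin L, was higher, at 789.8, 1038 and 1058 CPM in controls and 1308 to 3318 (median 1638) CPM with ethanol (0.99 ± 0.37 SE). It was one of the most abundant genes without overlap, and 5 of its ethanol libraries lay between 1308 and 2001 CPM. Ctsl was the only one of 39 autophagy, lysosome and mTORC1 genes without overlap (2.56%), around a median of 0.13 that was -0.06 with library totals.

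Serpinb6a, an intracellular inhibitor of serine proteases, was among the more abundant lower genes, at 346, 293 and 192 CPM in controls and 9.36 to 125 (median 76.4) CPM with ethanol (-1.88 ± 0.56 SE). Mlkl, the protein that breaches the membrane in necroptosis, was at 16.003, 13.6 and 26.4 CPM in controls and 0 to 5.503 (median 2.87) CPM with ethanol, a gap of 1.23 (-2.79 ± 1.02 SE). Fance, of the Fanconi anemia core complex, was at 4.16, 5.202 and 75.6 CPM in controls and 0 to 3.63 (median 2.004) CPM with ethanol. Its log2 fold change of -3.75 ± 1.11 SE was -1.18 without control 3. Psmb3, a subunit of the proteasome core, was at 70.8, 35.98 and 35.5 CPM in controls and 10.7 to 25.7 (median 22.8) CPM with ethanol (-1.17 ± 0.51 SE, and -0.766 without control 1) and was the only one of 44 proteasome genes without overlap (2.27%). Lists of 21 apoptosis genes and of 41 DNA damage and repair genes held none, with medians of 0.05 and -0.01.

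Among lower genes at 10 CPM or more whose symbol is not a predicted one, that of smallest p was Lcorl, a relative of a nuclear receptor corepressor. It was at 12.002, 31.8 and 5.57 CPM in controls and 0.771 to 1.91 (median 1.14) CPM with ethanol. The ethanol libraries were all low and close together, while the controls were spread widely. The log2 fold change was -3.696 ± 0.80 SE, and DESeq2 gave an adjusted p of 0.00145. The rule also named Fam221a (22.6, 12.4 and 91.3 CPM in controls, 1.48 to 10.02 (median 6.29) CPM with ethanol), whose log2 fold change of -2.74 ± 0.76 SE was -1.503 without control 3. Zscan29, a zinc finger protein, was at 55.4, 13.6 and 12.6 CPM in controls and 3.19 to 10.98 (median 6.87) CPM with ethanol, and its log2 fold change of -1.997 ± 0.70 SE was -0.95 without control 1. Crybg2 was at -2.65 ± 0.78 SE and Rex1bd at -2.79 ± 0.95 SE. Gpa33, an antigen of intestinal epithelium, was at 0 in all 6 ethanol libraries and at 0.816, 2.28 and 10.995 CPM in controls. Set against a floor of 3 counts over the ethanol group it was at least 146-fold lower, and DESeq2 gave it an adjusted p of 0.0355.

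**Figure D2:**
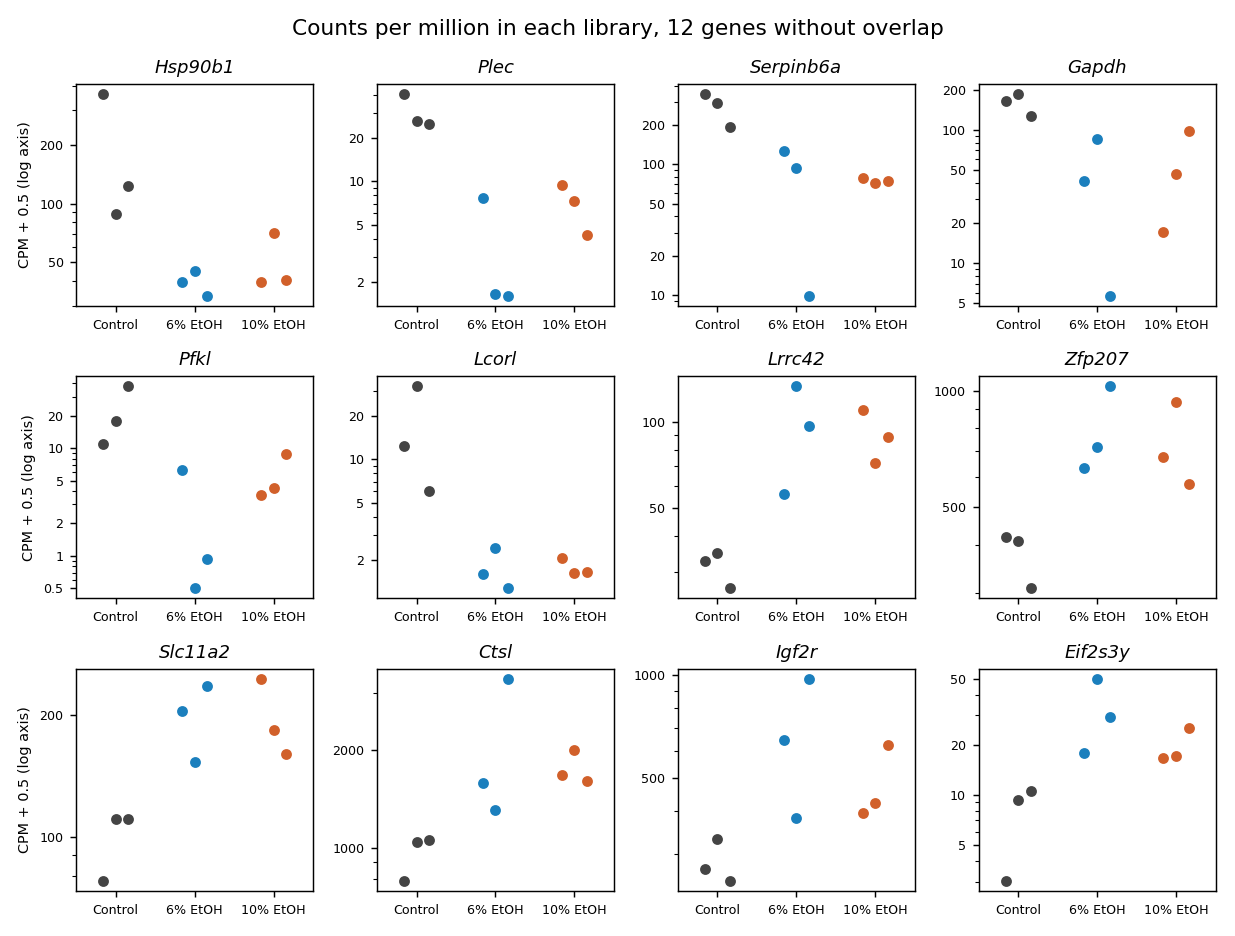
CPM plus 0.5 on a log axis for 12 genes without overlap, 1 point a library, by sire group. In Plec and Lcorl an empty band separates the controls from both doses, and in Gapdh and Serpinb6a 6% EtOH 3 lies far under the other ethanol libraries.

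The higher genes are given from RNA handling to translation, division, membranes and lineage, as single genes. Dbr1 opens the lariats left by splicing and was at 7.19, 19.6 and 23.2 CPM in controls and 27.5 to 499 (median 60.4) CPM with ethanol. Its log2 fold change of 3.02 ± 1.01 SE was 1.88 without 6% EtOH 3, the highest library. Dbr1 was the only one of 54 splicing genes without overlap (1.85%), while 38 of the 54 were above 0 and the median was 0.28, or 0.05 with library totals. Mettl4, which methylates an adenosine of a spliceosomal RNA, was at 16.6, 36.8 and 32.5 CPM in controls and 43.5 to 130.4 (median 74.2) CPM with ethanol (1.45 ± 0.55 SE). Wdr36, needed in the nucleolus to make the small ribosomal subunit, was at 289, 473 and 257 CPM in controls and 499 to 968 (median 624) CPM with ethanol (0.97 ± 0.37 SE).

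Of 43 translation factors, Etf1 and Eif3h were without overlap and higher, 4.65% against 0.769% of all genes. Etf1, which releases the finished chain at stop codons, was at 940.4, 1104 and 1232 CPM in controls and 1288 to 2052 (median 1354) CPM with ethanol (0.45 ± 0.31 SE). Eif3h, of the initiation factor that binds the small subunit, was at 796, 880.1 and 951 CPM in controls and 956 to 1674 (median 1059) CPM with ethanol (0.42 ± 0.32 SE). Both differences lay within 2 standard errors of 0. In the list 32 genes were above 0 and 11 below, with a median of 0.19 that became -0.01 with library totals. The 87 cytosolic ribosomal proteins held no gene without overlap and had a median of -0.08. Mrpl1, of the mitochondrial ribosome, was at 31.6, 42.7 and 62.2 CPM in controls and 70.4 to 958 (median 111) CPM with ethanol, and its log2 fold change of 2.41 ± 0.91 SE was 1.12 without 6% EtOH 2.

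Zfp207, also called BuGZ, loads the checkpoint protein Bub3 onto kinetochores and was at 419, 409 and 308 CPM in controls and 575 to 1028 (median 694) CPM with ethanol. The groups were well apart, and the log2 fold change was 1.004 ± 0.35 SE. Ccna2, cyclin A2, was at 267, 220.4 and 228 CPM in controls and 285 to 424 (median 348) CPM with ethanol (0.56 ± 0.32 SE), the only one of 43 cell cycle genes without overlap (2.33%). That list was divided evenly, 22 above 0 and 21 below, and its median of 0.10 was -0.07 with library totals. Dusp12, a phosphatase, was at 38.8, 25.1 and 14.4 CPM in controls and 48.5 to 86.2 (median 61.9) CPM with ethanol (1.27 ± 0.50 SE).

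Igf2r, an imprinted gene that takes up and clears the growth factor IGF2, was at 271, 332 and 250.1 CPM in controls and 382 to 976 (median 525) CPM with ethanol (1.02 ± 0.40 SE). Its lowest ethanol library lay above control 2, the highest control. It was the only one of 23 tested imprinted genes without overlap (4.35%), around a median of -0.01. Slc11a2, the divalent metal transporter of iron uptake, was at 77.2, 110.04 and 110.4 CPM in controls and 153 to 246 (median 194) CPM with ethanol (0.99 ± 0.37 SE). Here both groups were tight, with 153 CPM the lowest ethanol value and 110 CPM the highest control. Pccb, of propionyl-CoA carboxylase, was at 15.2, 16.8 and 13.6 CPM in controls and 19.2 to 61.3 (median 41.3) CPM with ethanol (1.44 ± 0.57 SE). Ei24, a target of p53 in the endoplasmic reticulum, was at 143, 208 and 114 CPM in controls and 213 to 402 (median 321) CPM with ethanol (1.01 ± 0.39 SE). Ei24 went against its list, since 17 of 24 p53 targets were below 0 and the median was -0.31, or 0.01 without control 2.

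Yap1, the coactivator that the Hippo pathway keeps out of the nucleus of inner cells, was at 154, 122 and 128 CPM in controls and 158 to 213 (median 176) CPM with ethanol (0.41 ± 0.34 SE). It was the only one without overlap in the trophectoderm list (1 of 25, 4%, median -0.08) and in the Hippo list (1 of 21, 4.76%, median 0.08, and -0.19 with library totals). Lists of 23 pluripotency genes and of 15 primitive endoderm and Fgf genes held none, with medians of 0.22 and 0.11.

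Lrrc42 had the widest gap of the higher genes at 10 CPM or more without a predicted symbol. It was at 32.5, 34.6 and 25.9 CPM in controls and 55.5 to 132 (median 91.9) CPM with ethanol, a gap of 0.67 and a log2 fold change of 1.57 ± 0.46 SE. It stayed between 1.42 and 1.67 as each library was left out. Klhl2, an adaptor of the cullin 3 ubiquitin ligase, had controls close to each other, at 14.1, 17.6 and 17.4 CPM, and was at 26.9 to 39.3 (median 28.7) CPM with ethanol (0.903 ± 0.51 SE). Pou6f1, a POU domain transcription factor, was at 21.2, 25.9 and 8.36 CPM in controls and 29.01 to 174 (median 45.8) CPM with ethanol (1.998 ± 0.73 SE). Arl5c, a small GTPase of the ARF family, was at 0 in all 3 controls and ran from 0.0731 to 188 CPM with ethanol. Set against a floor of 3 counts over the control group its mean was at least 551-fold higher, but its lowest ethanol library held 2 counts and 10% EtOH 3 held most of the signal.

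Of 6 tested genes of the Y chromosome, 2 were without overlap and higher, 33.3% against 0.769% of all genes. Eif2s3y, a subunit of a translation initiation factor, was at 2.53, 8.85 and 9.97 CPM in controls and 16.05 to 49.5 (median 20.98) CPM with ethanol (1.84 ± 0.72 SE). Uba1y, a ubiquitin-activating enzyme, was at 0 in the controls and at 0.991 to 12.5 (median 4.72) CPM with ethanol, at least 84.4-fold higher against a floor of 3 counts over the control group, with a DESeq2 adjusted p of 0.000720. Its closest relative Uba1 lies on the X chromosome, and reads shared between them could make its counts uncertain. Ddx3y was at 6.86, 27.7 and 38.3 CPM in controls and 24.2 to 148 (median 31.1) CPM with ethanol, with overlap. Zfy2, Usp9y and Uty also overlapped, and the median of the 6 was 1.92 (1.49 to 2.11 as each library was left out). Xist, the RNA of the inactive X chromosome and so a marker of female cells, was at 333, 161 and 596 CPM of the library total in the controls, at 14.1, 577 and 1377 CPM in 6% EtOH 1 to 3 and at 3.52, 11.4 and 476 CPM in 10% EtOH 1 to 3. Xist went with header form, at 161 CPM or less in every long-header library and 333 CPM or more in every short-header one. The share of male and female embryos in a library is not labelled. Its part in these differences, and that of header form, were not tested.

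**Figure D3:**
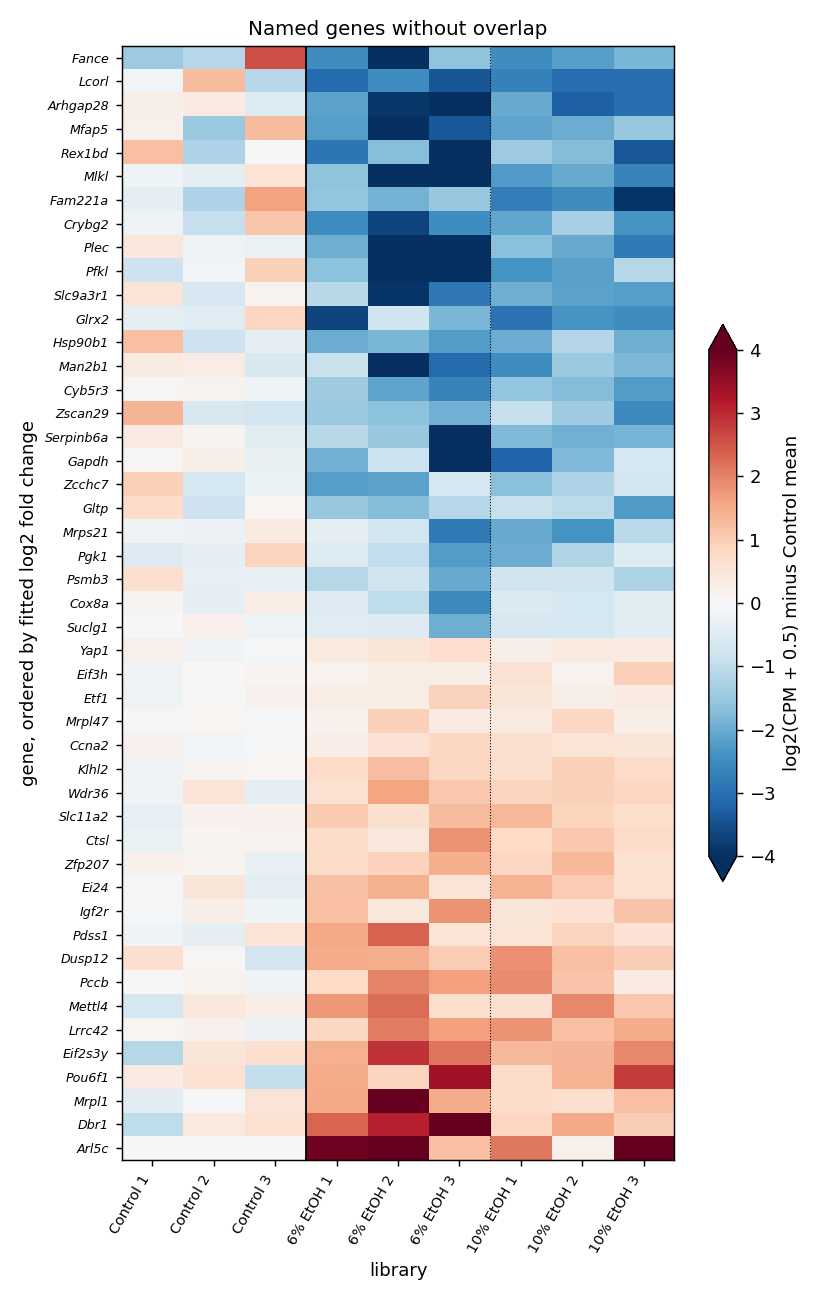
Log2(CPM + 0.5) minus the mean of the 3 controls for the 47 named genes without overlap, 1 row a gene and 1 column a library, red above and blue below the control mean. The 6 ethanol columns carry 1 colour in each row by the choice of genes, and 6% EtOH 2 and 6% EtOH 3 are often the deepest.

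Some genes outside the rule for named genes are added here, chosen after their values were seen and for what they are known to do. Among growth factor receptors, Egfr was at 9.72, 1.81 and 4.98 CPM in controls and at 0 in 4 of 6 ethanol libraries, with a highest value of 0.661 CPM. Tgfbr2 was at 5.06, 2.67 and 14.4 CPM in controls and no higher than 0.677 CPM with ethanol. Acvr1b, the activin receptor, was at 17.9, 7.98 and 7.77 CPM in controls and 0 to 4.44 (median 0.985) CPM with ethanol. All 3 are scarce messages in these libraries. Of innate signalling proteins, the inflammasome adaptor Pycard was at 2.37, 4.95 and 3.23 CPM in controls and 0.105 to 0.881 (median 0.349) CPM with ethanol, and Tank, an adaptor of NF-kappaB signalling, at 19.6, 18.7 and 34.2 CPM and 2.12 to 13.3 (median 6.32) CPM. Ckap5, a microtubule polymerase of the spindle, was at 65.6, 90.4 and 149 CPM in controls and 31.7 to 60.3 (median 47.99) CPM with ethanol (-1.13 ± 0.43 SE), and the spindle proteins Tacc3 (-0.95 ± 0.50 SE) and Haus5 (-3.45 ± 1.31 SE) were also lower, while Anapc10, of the anaphase-promoting complex, was higher (0.804 ± 0.36 SE). On the higher side, the nuclear exonuclease Xrn2 was at 136, 166 and 165 CPM in controls and 184 to 419 (median 204) CPM with ethanol (0.69 ± 0.40 SE). Nfs1, which supplies sulfur for iron-sulfur clusters, was at 19.02, 20.4 and 20.2 CPM in controls and 23.01 to 177 (median 42.6) CPM with ethanol (1.598 ± 0.70 SE), with 6% EtOH 2 far above the other libraries. Beside the 47 genes that the rule named, 73 higher genes had log2 fold changes of 0.46 to 5.75 and 100 lower genes of -9.19 to -0.46.

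The edge of the choice was thin. Among genes at 10 CPM or more whose symbol is not a predicted one, the narrowest gap inside it was that of Pdss1 among the higher, whose highest control was 16.71 CPM and lowest ethanol library 16.73 CPM, and Zcchc7 among the lower, whose lowest control was 21.82 CPM and highest ethanol library 21.58 CPM. Just outside were Cnot11, whose highest control was 35.93 CPM and lowest ethanol library 35.80 CPM, and Capn2, whose lowest control was 9.089 CPM and highest ethanol library 9.147 CPM.

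Between the doses no gene passed. In a fit with 3 groups, 10% EtOH against 6% EtOH gave 0 genes by edgeR over all 12488 (smallest adjusted p 0.806), and 3 of 96 higher genes (3.12%) and 3 of 127 lower genes (2.36%) had an unadjusted p under 0.05, against 5.33% of all genes. Named after their values were seen, the higher ones were Dbr1, Mrpl1 and Eef1e1 and the lower ones Gm19554, Egfr and 4930562C15Rik. The 10% EtOH mean was the higher in 23 of the 96 higher genes (24%) and in 86 of the 127 lower genes (67.7%), against 49.5% of all genes, so that 10% EtOH lay nearer to the controls in most of both sets. The same ethanol values chose these genes, so the share of all genes is no neutral baseline for an order of doses. The ethanol library farthest from the controls was 6% EtOH 2 or 6% EtOH 3 in 69 of the 96 higher genes (71.9%), against the highest of the 6 in 41.4% of all genes, and in 80 of the 127 lower genes (63%), against the lowest of the 6 in 55.4% of all genes. The shares treat ties, such as values of 0, differently. Among the genes without overlap a tie went to the first tied library in order, and over all genes any tied library counted. 6% EtOH 2 and 6% EtOH 3 are the libraries with the most tested genes at 0, and the part of that in the differences was not tested. The control nearest to the ethanol libraries was control 2 in 42 of 96 and 51 of 127 genes, more than either other control. Within header forms, the median difference of the higher genes was 0.79 for the long form and 1.33 for the short, and that of the lower genes -1.39 and -2.01. The long form has control 2 as its only control. Both 6% EtOH 2 and 6% EtOH 3 have short headers, whereas 10% EtOH 1 and 10% EtOH 2 have long ones. An order of the doses therefore cannot be told apart from header form and depth.

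**Figure D4:**
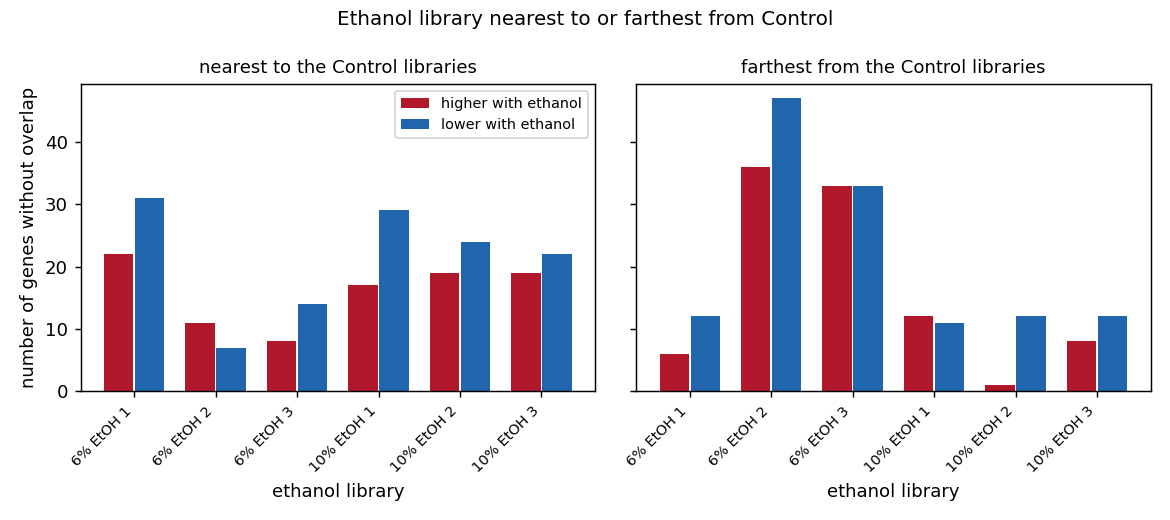
For each ethanol library, the number of genes without overlap in which it was nearest to the controls and in which it was farthest from them, for the 96 higher and 127 lower genes. The bars for 6% EtOH 2 and 6% EtOH 3 are the tallest among the farthest (36 and 33 higher, 47 and 33 lower).

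Of the 36 gene lists, 16 held at least 1 gene without overlap and 20 held none, and 22 of the 223 genes were in a list. Lists with no such gene could still lie off the median of all genes. Of 12 tested immediate early genes, which respond to signals and stress before other genes, 11 were below 0, with a median of -0.95 that ran from -1.43 without control 3 to -0.51 without control 1. Jun (-1.300 ± 0.75 SE), Junb (-2.78 ± 1.55 SE) and Fos (-1.11 ± 0.91 SE) were among them, and none had an unadjusted p under 0.05 by edgeR. Of 19 genes of the 2-cell stage and genome activation 17 were above 0 with a median of 0.89 (0.57 without 10% EtOH 3, 1.46 without control 1), and of 16 maternal oocyte genes 12 were above 0 with a median of 0.695 (0.342 without 10% EtOH 1, 0.817 without control 2). In each of these 3 lists the groups overlapped in every gene. The alcohol, aldehyde and retinoid metabolism list, which holds the enzymes that oxidize ethanol and retinol, had 15 tested genes, 10 below 0 and 5 above, with a median of -0.23 and no gene without overlap. Lists of 23 DNA methylation genes and of 55 histone modifiers held none either, with medians of 0.15 and 0.13, each below 0 with library totals (-0.13 and -0.10).

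**Figure D5:**
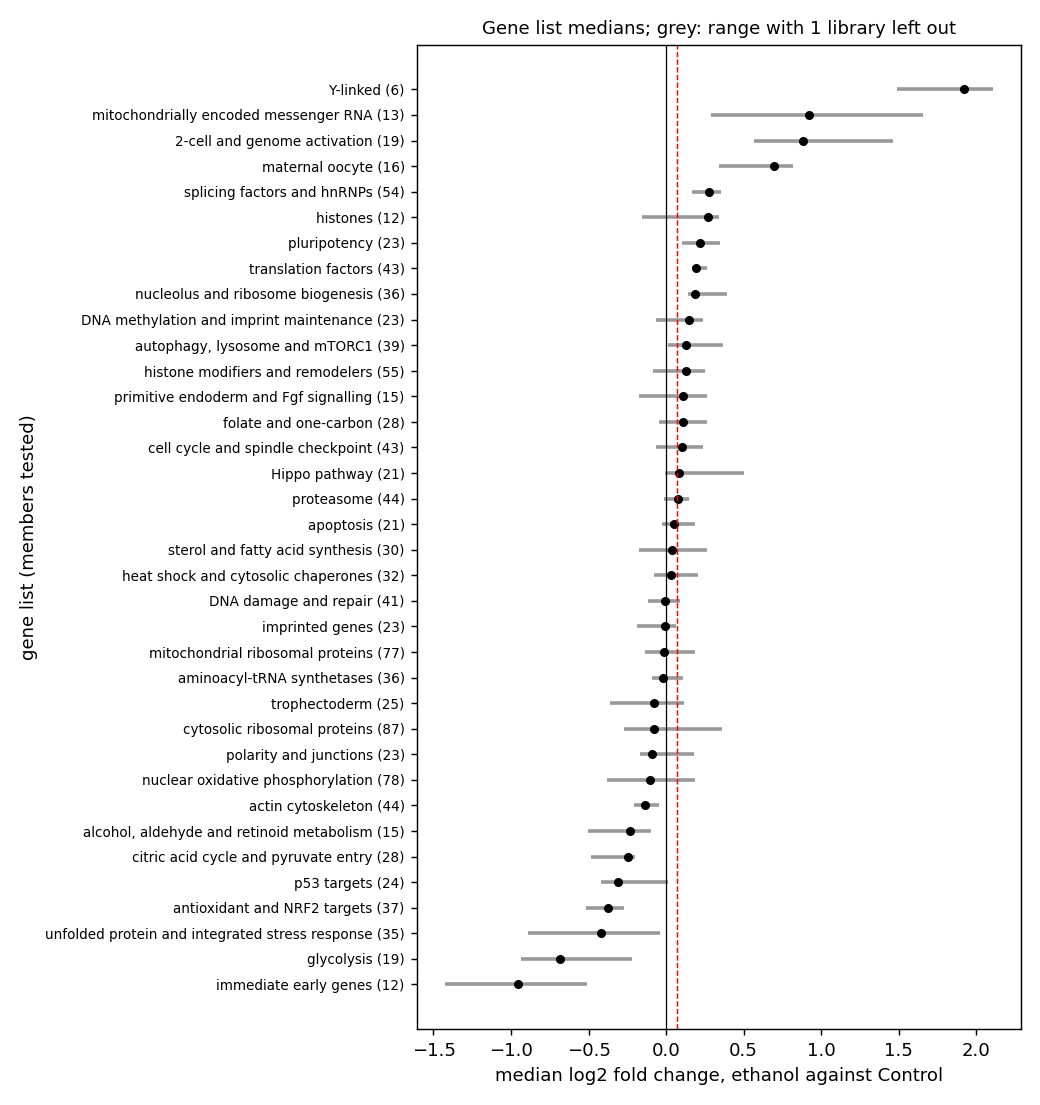
Median log2 fold change of the tested members of each of 36 gene lists, with a grey bar from the lowest to the highest median as each of the 9 libraries was left out in turn, and a red dashed line at the median of all tested genes, 0.07. Immediate early genes and glycolysis lie farthest to the left and the Y-linked genes farthest to the right.

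Lastly, the sets were compared in features of sequence that the choice did not use. Matched by symbol to GENCODE M21, 97.5% of all tested, 97.9% of higher and 98.4% of lower genes had a transcript, with median lengths of 3145.5, 3201 and 3189 bases. The median GC content was 45.36% in higher and 49.92% in lower genes, against 49.06% in all. Of other short motifs in the promoter windows on both strands, the Sp1 box GGGCGG was in 69.1% of all, 61.8% of higher and 65.7% of lower genes. CCAAT was in 44%, 36.8% and 45.7%, and TATAAA in 8.46%, 2.94% (2 of 68 genes) and 8.57% (9 of 105). The amino acid response element TGATGNAA was in 2.64%, 4.41% (3 of 68) and 4.76% (5 of 105), and the antioxidant element TGACNNNGC in 17%, 20.6% and 15.2%. Matches are of letters only.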

How the data were processed

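The deposited files held raw gene counts, 1 file a library, which the authors made with featureCounts on GRCm39 (mm39), per the submitters' processing notes, where DESeq2 is also named. In 4 files the count column names RNA STAR, per the file headers. The aligner of the other 5, versions, annotation and strand setting are not given in the sources used here, so genes with near-identical copies or antisense partners carry uncertain counts.

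Of 53819 gene rows, 12488 passed filterByExpr by ethanol and control. Libraries were scaled with TMM factors and fitted with edgeR 4.0.16 (quasi-likelihood, R 4.3.3). Adjustment was by Benjamini-Hochberg over the 12488 genes with a threshold of 0.05. DESeq2 1.42.0 (which left the adjusted p of 469 genes undefined) and limma 3.58.1 were alternatives. Standard errors were derived from the F statistic of each log2 fold change. Counting floors of 3 counts cover counting error only. Chi-square over its degrees of freedom was 192 to 427 between libraries of a group, more than resequencing the same library would give. It cannot show whether libraries share embryos or sires, which the labels do not say. The common biological coefficient of variation was 0.937. The scripts were tested on simulated data.

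The comparison, gene lists and rules were chosen with earlier results of these data known. Named at 10 CPM or more in a group, without predicted symbols, were the 15 lower and 15 higher genes without overlap of smallest p, the 5 of widest gap each way, up to 5 genes without overlap of each list, and the genes on either side of the edge. Sequences are RefSeq promoters of GRCm38.p6, matched by symbol for 8945 tested genes.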

Additional observations from a re-analysis of the deposited data

Results flagged for a closer look

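In each of the 47 named genes without overlap the 6 ethanol libraries were searched for a library far from the other 5, with Dixon's ratio of the gap to the range on log2(CPM + 0.5) and its 95% critical value for 6 values. Chance alone sets about 1 in 20 groups of 6 unselected, normally distributed values apart, and 5 of the 47 were. The 47 genes were chosen on these values and share the same libraries, so that rate need not hold for them. All 5 were in 6% EtOH 2 or 6% EtOH 3. In Mrpl1, 6% EtOH 2 was the highest at 957.8 CPM, and the next ethanol library was at 126 CPM. In Fance, 6% EtOH 2 was the lowest at 0 CPM, and the next was at 1.78 CPM. In 6% EtOH 3, Serpinb6a was lowest at 9.36 CPM with the next at 71.4 CPM, Suclg1 at 102 CPM with the next at 246 CPM, and Cox8a at 2.42 CPM with the next at 8.02 CPM.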

How the results depend on the processing

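With edgeR 0 genes passed with RLE scaling, library totals, 2 other filters, 3 groups, a term for header form, either header form by itself, counts thinned to the smallest library, mitochondrially encoded and ribosomal RNA genes left out, each library left out, each dose alone and a threshold of 0.1. At an unadjusted p under 0.05 these settings gave 334 to 1384 genes. Without any filter 49 passed, 3 of them among the 223, and Arl5c reached an adjusted p of 0.000660 (log2 fold change 12.06). DESeq2 gave 5, with Lcorl at 0.00145 (-3.72), and limma voom 0. The dose test gave 0 with edgeR in all settings run (RLE, library totals, 2 filters, each library left out), and other settings were not run for it.

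Counts without overlap were 44 higher and 197 lower with library totals and 199 lower with no filter. They grow by construction with fewer libraries. They were 3605 higher and 4574 lower in the long-header libraries, 965 and 1220 in the short-header ones, 380 and 541 for 6% EtOH alone and 520 and 442 for 10% EtOH alone. As each library was left out they ran from 130 to 394 higher and from 181 to 624 lower, both highest without control 3. Without control 1 they were 286 and 426 and without control 2 they were 352 and 405. Without 6% EtOH 1 or 2 the higher count was 152 or 178, without 10% EtOH 2 the lower count was 194, and without 10% EtOH 3 the counts were 180 and 200.

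The median of the cell cycle list was -0.0698 with library totals and -0.295 with short headers only, those of the mitochondrial ribosomal and actin lists 0.278 and 0.066 in long-header libraries, and that of mitochondrially encoded messages -0.498 for 10% EtOH alone. The cause was not tested. No named gene changed sign in any setting run. No paired analysis was possible because the replicate numbers follow accession order and pair nothing. Totals of 6263465 to 27619281 counts limit the precision for genes of few CPM.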
